A study of Mus musculus with 2 samples.

Results

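The genes described here encode the interleukin-6 receptor, the receptors of related cytokines, and a signal transducer and a feedback inhibitor of interleukin-6 signalling. They are 7 of the 32285 genes in the count tables of the study: Il6ra, Il6st, Il4ra, Il21r, Il27ra, Stat3 and Socs3. All 7 were found by gene symbol in both libraries. They were chosen by their measured levels in wild-type (WT) and conditional knockout (CKO) cells gated on raw counts, with earlier results of these data in view. The CKO over WT ratios below are therefore a description of the values that chose the genes, and no statement is supported by them. Immune cells of the lymph nodes of C57BL/6 mice were profiled by droplet single-cell RNA sequencing, with 1 library from wild-type mice and 1 library from mice with a conditional knockout of RPA1, the large subunit of the single-stranded DNA binding complex replication protein A. The sources used here do not give the Cre line or the cells it acts in, the deleted exons, the number, age or sex of the mice, or any treatment. With 1 library per genotype no test was possible. Each interval below is a 95% interval for counting error, and the spread between mice is unknown.

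Interleukin-6 binds the receptor chain encoded by Il6ra, and the complex then recruits gp130, encoded by Il6st. This signalling chain is shared by most cytokines of the family. Janus kinases bound to gp130 activate STAT3, and STAT3 induces Socs3, whose product binds gp130 and the kinases and shuts the signal off. In T cells this pathway is known for its part in helper cell differentiation, survival and the balance with regulatory cells. Il27ra encodes the interleukin-27 receptor, which also pairs with gp130, and Il21r the interleukin-21 receptor, which pairs with the common gamma chain and signals largely through STAT3. Il4ra encodes the interleukin-4 receptor alpha chain, which signals mainly through STAT6.

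After quality filters, 11169 WT and 11804 CKO cells were kept, from 12769 and 13754 barcodes. The median barcode held 5984 unique molecular identifiers (UMIs) in the WT library and 4549 in the CKO library, and 56 barcode sequences occurred in both libraries. T cells, gated on CD3 genes without Cd79a, were 7715 of the WT cells (69.1%) and 3531 of the CKO cells (29.9%). B cells, gated on Cd79a without Cd3e, were 2754 (24.7%) and 7319 (62.0%). Within T cells the gates gave 2803 WT and 1347 CKO CD4 cells, 2779 and 459 CD8 cells, 223 and 199 Foxp3-positive cells, 232 and 624 Trdc-positive cells, and 1678 and 902 T cells that met none of these gates. Natural killer (NK) cells, gated on Ncr1 without Cd3e, numbered 81 and 236. The 5 B cell markers summed to 8699 WT and 9527 CKO CPM in B cells, of which the gate gene Cd79a held 2878 and 3027 CPM. In T cells these markers summed to 267 and 242 CPM, where 1 of the 5, Cd79a, was set to 0 by the gate. Rpa1 measured 46.8 CPM in WT and 23.7 CPM in CKO CD4 cells (ratio 0.507, interval 0.431 to 0.593), 35.1 and 27.2 CPM in CD8 cells (ratio 0.774, 0.613 to 0.968), and 40.8 and 35.7 CPM in B cells (ratio 0.875, 0.789 to 0.971). The Rpa1 ratio was 0.742 in Foxp3-positive cells (0.469 to 1.16), 0.903 in Trdc-positive cells (0.665 to 1.24) and 1.32 in NK cells (0.797 to 2.27), and these intervals included 1. Where the 3′ reads lie relative to the deleted exons is not given, so these Rpa1 levels check the labels only in part.

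Levels are given in counts per 1000000 UMIs (CPM), the summed UMIs of a gene in a gate and library scaled by the total of that gate. A gene was called lower or higher at a fold of 1.5 where its mean over the libraries was at least 10 CPM. By this rule 0 of 7 genes were called in CD4 cells, where 1.19% of 7201 genes were lower and 1.28% higher. Of the 7 genes 0 were called in CD8 cells, where 1.1% of 7177 genes were lower and 3.59% higher. In Foxp3-positive cells 0 of 7 were called, against 9.27% of genes lower and 7.5% higher. Among Trdc-positive cells 2 of 7, Il6ra and Il6st, were lower and 1 of 7, Socs3, higher, against 3.85% and 8.14% of 7428 genes. In B cells 5 of the 7 genes reached 10 CPM and 0 of these were called, against 0.974% of 7395 genes lower and 0.676% higher. In NK cells 5 of the 7 genes reached 10 CPM; 0 were lower and 1, Socs3, was higher, against 11.6% and 8.79% of genes. Over all T cells 0 were lower and 1, Socs3, was higher, against 0.797% and 1.9% of 7281 genes. Among the T cells outside the 4 T gates 0 of 7 were called, against 1.31% lower and 1.74% higher. These counts come from the contrast that chose the genes, and nothing is read from them. The levels and ratios that follow describe these 2 libraries.

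**Figure D1:**
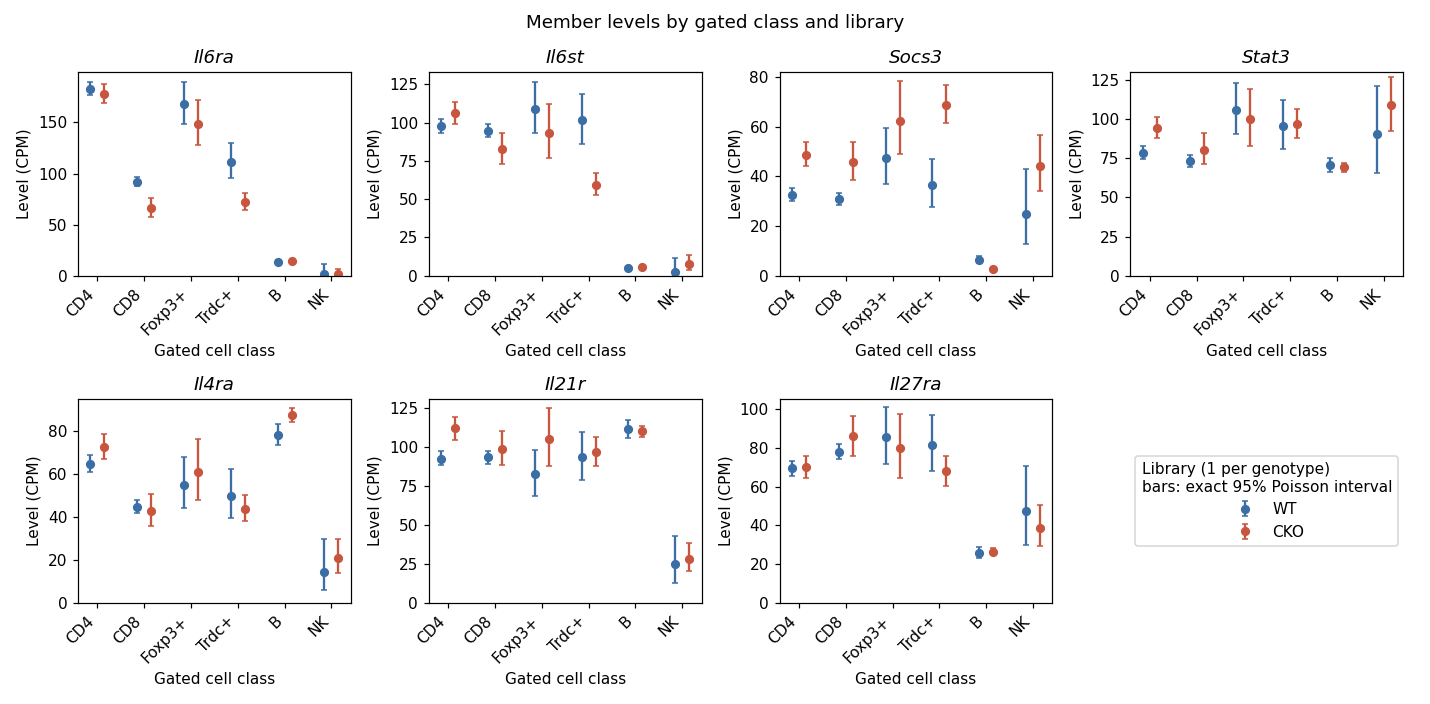
Level of each gene in CPM (linear axis from 0) in 6 gated classes, WT in blue and CKO in red, with 1 library per genotype; bars are exact 95% Poisson intervals. Il6ra and Il6st sit near 0 in B and NK cells, whereas Il4ra and Il21r are as high in B cells as in T cells or higher.

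Il6ra, the ligand-binding chain of the interleukin-6 receptor, lies on the minus strand of mouse chromosome 3 (GRCm38, 89864059 to 89913196). Its level was 183 CPM in WT and 178 CPM in CKO CD4 cells, from 3285 and 1448 UMIs. In CD8 cells it was 92.0 CPM in WT and 66.5 CPM in CKO, from 1953 and 213 UMIs. The CD4 ratio was 0.974 (0.915 to 1.04) and the CD8 ratio 0.723 (0.625 to 0.833). Whether the CD4 and CD8 ratios differ from each other was not tested. The median gene itself had a CD8 log2 ratio of 0.11, and with this shift removed the log2 ratio of Il6ra was -0.58 in place of -0.47.

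Among CD8 cells without Ccl5, a chemokine gene of memory and effector cells, Il6ra measured 96.8 CPM in WT and 71.0 CPM in CKO (ratio 0.733, 0.627 to 0.853). After each cell was thinned to 2000 UMIs, an Il6ra UMI was found in 16.9% of WT CD8 cells (15.5% to 18.3%) and 11.2% of CKO CD8 cells (8.42% to 14.4%), with 2 shallower cells left out in each library. Without thinning the shares were 44.9% and 30.5%, at median depths of 7168 and 6438 UMIs. In CD4 cells the thinned shares were 29.4% and 28.3%, with 12 and 6 shallower cells left out.

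In Foxp3-positive cells the Il6ra level was 168 CPM (WT) and 149 CPM (CKO) (ratio 0.884, 0.727 to 1.07). In both libraries their level overlapped that of CD4 cells within counting error, and CD8 and Trdc-positive cells followed. B cells held 13.5 and 14.2 CPM (ratio 1.05, 0.883 to 1.26). NK cells held 1 Il6ra UMI in the WT library and 3 in the CKO library. At 2000 UMIs per cell, an Il6ra UMI was found in 2.72% of WT and 2.67% of CKO B cells, in 1 of 81 WT NK cells, and in 0 of 233 CKO NK cells, which allows a share of cells with a UMI of up to 1.29% (3 counts of the total). Without thinning, 2 of 236 CKO NK cells held one. The B cell level of Il6ra was 9.56% of the T cell level in WT and 10.5% in CKO. For comparison, Trac, the T cell receptor alpha constant gene, stood at 1.23% and 0.783%, Trbc2, its beta chain counterpart, at 1.23% and 0.743%, and Lat, an adaptor gene of T cell receptor signalling, at 1.56% and 1.15%. Cd247, the CD3 zeta chain gene, stood at 2.27% and 1.66%. Lck, a kinase gene of T cells, stood at 5.83% and 5.27%. The Il6ra value lay above those of these 5 genes in both libraries, and the part of free RNA in it was not tested.

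Il6st, which encodes the shared chain gp130, lies on the plus strand of chromosome 13 (112464070 to 112510086). It measured 97.9 CPM in WT and 106 CPM in CKO CD4 cells, and 94.7 and 82.5 CPM in CD8 cells. The CD4 ratio was 1.09 (1.00015 to 1.18) and the CD8 ratio 0.871 (0.763 to 0.991), with the difference between them not tested. Foxp3-positive cells held 109 and 93.2 CPM (ratio 0.854, 0.667 to 1.09). Unlike Il6ra, Il6st was at a like level in CD4, CD8 and Foxp3-positive WT cells, whose intervals overlapped from one neighbour to the next. B cells held 4.86 and 5.61 CPM, which was 5.04% (3.87% to 6.46%) and 6.201% (5.30% to 7.21%) of the T cell level. This overlapped the value of Lck within counting error in both libraries and lay above those of Trac, Trbc2, Lat and Cd247. NK cells held 1 and 11 UMIs.

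At 2000 UMIs per cell, Il6ra and Il6st were found together in 4.51% of WT and 5.37% of CKO CD4 cells, in 2.77% and 2.19% of CD8 cells, and in 0.0368% and 0.0278% of B cells. Without thinning the shares were 25.8% and 25.2% of CD4 cells, 20.3% and 11.5% of CD8 cells, and 0.218% and 0.164% of B cells. Within WT CD4 cells thinned to 2000 UMIs, an Il6st UMI was found in 15.4% of the cells with Il6ra and 17.1% of the others. In CKO CD4 cells these shares were 19.0% and 18.7%. In Trdc-positive cells they were 16.3% and 18.6% in WT, and 18.8% and 10.2% in CKO, with only 8 WT and 15 CKO cells holding both. Without thinning the Trdc-positive shares were 50% and 40.4% in WT, and 41.3% and 25.2% in CKO, so the WT order depended on the thinning.

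**Figure D2:**
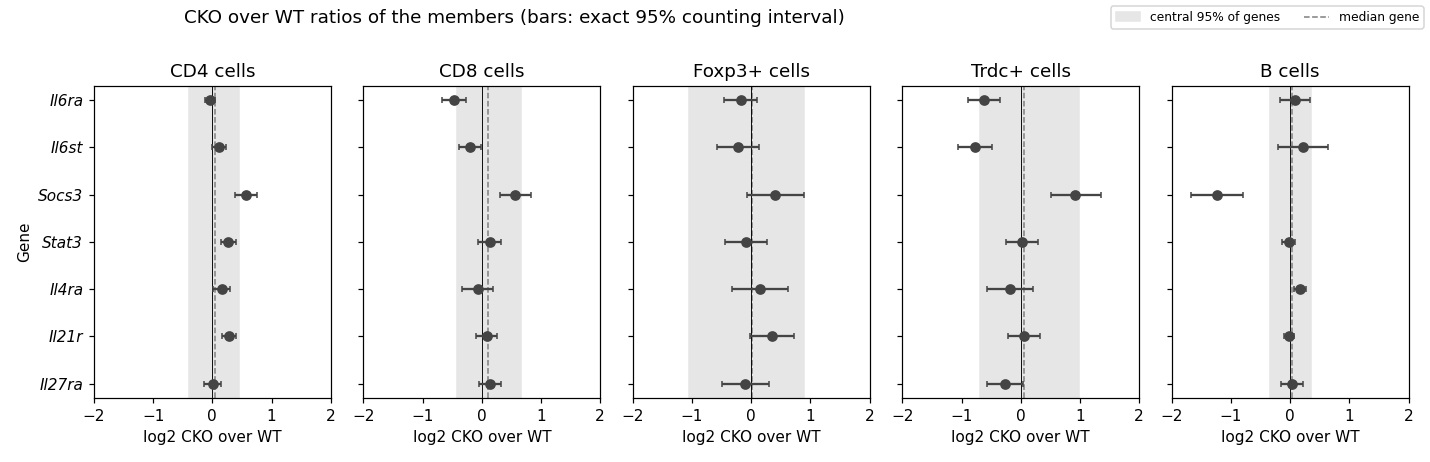
CKO over WT ratio of each gene on a log2 axis in 5 gated classes, with exact 95% intervals for counting error; the grey band holds the central 95% of all genes with a mean of at least 10 CPM and the dashed line is the median gene. Socs3 lies right of 0 in CD4, CD8 and Trdc-positive cells and left of 0 in B cells, where it and Il6st were under 10 CPM.

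Socs3 encodes the suppressor of cytokine signalling that STAT3 induces and that acts on gp130. The gene lies on the minus strand of chromosome 11 (117966079 to 117970047). Its promoter, 250 bases before to 50 bases after the start in the RefSeq annotation of GRCm38.p6, is printed because it was the one promoter, of the 6 of these genes with a RefSeq entry, that held the STAT core motif TTCNNNGAA. The promoter at chr11:117969317-117969616 is shown on the minus strand, 5′ to 3′, with the motif in capitals:
Socs3: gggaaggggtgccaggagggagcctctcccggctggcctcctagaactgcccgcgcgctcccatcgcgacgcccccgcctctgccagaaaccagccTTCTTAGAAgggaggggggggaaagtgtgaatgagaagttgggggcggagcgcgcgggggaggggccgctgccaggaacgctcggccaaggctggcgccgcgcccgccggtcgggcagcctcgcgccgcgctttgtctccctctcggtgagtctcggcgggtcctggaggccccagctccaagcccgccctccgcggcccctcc

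The GENCODE gene start lies upstream of this RefSeq start, and the whole printed window lies within the GENCODE gene. The window is therefore a promoter by the RefSeq start only. The match began at position -154 relative to the RefSeq start. The motif reads the same on both strands, and both were searched. It occurs in 8.30% of 32851 mouse promoters of the same length. A pattern of interferon response elements, TTTC followed after 2 or 3 bases of any kind by TTTC, was searched on both strands and occurs in 3.44% (2 bases) and 2.75% (3 bases) of promoters and in 0 of these 6. The Socs3 window has 73.3% G and C, against a median of 52.7%. These matches are letters in a window, and binding was not measured.

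Socs3 measured 32.7 CPM in WT and 48.7 CPM in CKO CD4 cells, from 587 and 396 UMIs (ratio 1.49, 1.31 to 1.70). In CD8 cells it measured 30.8 and 45.6 CPM, from 653 and 146 UMIs (ratio 1.48, 1.23 to 1.78). T cells outside the 4 T gates gave a ratio of 1.45 (1.24 to 1.69). Foxp3-positive cells held 47.2 and 62.4 CPM, with an interval of the ratio that included 1 (1.32, 0.946 to 1.85). NK cells held 24.6 and 44.3 CPM, from 12 and 64 UMIs, and this interval also included 1 (1.80, 0.963 to 3.66). With the shift of the median CD8 gene removed, the CD8 log2 ratio of Socs3 was 0.46 in place of 0.57.

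At 2000 UMIs per cell the share of CD4 cells with a Socs3 UMI was 5.88% in WT (5.03% to 6.81%) and 9.62% in CKO (8.09% to 11.3%). The unthinned shares were 15.6% and 21.6%, at median depths of 6016 and 5770 UMIs. Cells with exactly 1 Socs3 UMI made up 12.1% of WT and 16.4% of CKO CD4 cells, cells with 2 made up 2.46% and 3.56%, and cells with 3 or more made up 1.07% and 1.63%. In CD8 cells the thinned shares were 6.01% and 7.66%, and their intervals overlapped. Among CD4 cells without Ccl5, Socs3 measured 32.7 CPM in WT and 50.1 CPM in CKO (ratio 1.53, 1.34 to 1.75), and the CD8 cells without Ccl5 gave a ratio of 1.43 (1.17 to 1.75).

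In B cells the order of the libraries was the other way round. Socs3 measured 6.48 CPM in WT and 2.74 CPM in CKO B cells, from 84 and 90 UMIs (ratio 0.424, 0.311 to 0.577). Both values are below the 10 CPM at which genes were called. A Socs3 UMI was found in 2.58% of WT and 1.08% of CKO B cells, with intervals of 2.02% to 3.24% and 0.855% to 1.34%. At 2000 UMIs per cell the shares were 0.956% and 0.528%, with overlapping intervals. At 3000 UMIs they were 1.87% (1.37% to 2.48%) and 0.741% (0.545% to 0.984%), which do not overlap, with 290 WT and 978 CKO shallower cells left out. No B cell in either library held more than 4. The B cell level was 19.3% of the T cell level in WT (15.3% to 24.0%), above Trac, Trbc2, Lat, Cd247 and Lck. In CKO it was 5.01% (3.995% to 6.204%), above the first 4 of these and overlapping Lck. The 4 plasma cell markers summed to 1407 CPM in WT and 561 CPM in CKO B cells. In B cells with fewer than 5 UMIs of Jchain, the antibody joining chain gene, the ratio was 0.406 (0.298 to 0.554), and in B cells with no Trac or Trbc2 UMI it was 0.400 (0.284 to 0.562). Plasma cells, 12 in WT and 6 in CKO, held 0 Socs3 UMIs in both libraries, which allows up to 8.75 and 17.9 CPM (3 counts of the total).

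Stat3, the transducer of gp130 signals, lies on the minus strand of chromosome 11 (100885098 to 100939540). Of the 7 genes it was the one spread most evenly over the classes: from the highest to the lowest class, the intervals of all neighbours overlapped in both libraries. The WT level ran from 70.5 CPM in B cells to 106 CPM in Foxp3-positive cells, and the CKO level from 69.4 CPM in B cells to 109 CPM in NK cells. In CD4 cells Stat3 measured 78.5 CPM in WT and 94.7 CPM in CKO (ratio 1.21, 1.10 to 1.32). The CD8 ratio was 1.10 (0.962 to 1.26), the Foxp3-positive ratio 0.943 (0.739 to 1.20) and the B cell ratio 0.984 (0.911 to 1.06). Stat3 shares 72 bases with Stat5a on the opposite strand. Il6ra, Il4ra and Il27ra likewise overlap Gm42809, Gm44876 and Palm3 on the opposite strand, and the sources used here do not give the strand setting of the counting.

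Il4ra and Il21r are neighbours on the plus strand of chromosome 7, at 125552120 to 125579474 and 125603429 to 125633570, with 23954 bases between them. Both were highest or among the highest in B cells. Il4ra measured 78.1 CPM in WT and 87.3 CPM in CKO B cells (ratio 1.12, 1.04 to 1.20), above CD4 cells at 64.7 and 72.4 CPM in both libraries. The CD4 ratio of Il4ra was also 1.12 (1.01 to 1.24). CD8 cells held 44.8 and 42.8 CPM (ratio 0.956, 0.793 to 1.15), Foxp3-positive cells 54.9 and 60.8 CPM, and NK cells 14.4 and 20.8 CPM.

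Il21r measured 111 CPM in WT and 109.9 CPM in CKO B cells (ratio 0.986, 0.928 to 1.05). In CD4 cells it measured 92.4 CPM in WT and 112 CPM in CKO (ratio 1.21, 1.11 to 1.31). WT B cells lay above every WT T cell gate apart from Trdc-positive cells by more than counting error, whereas CKO CD4 and B cells overlapped. Foxp3-positive cells held 82.3 and 105 CPM (ratio 1.27, 0.989 to 1.64). Among those without a UMI of 4 interferon-induced genes described below the ratio was 0.790 (0.531 to 1.16), and among those with one it was 2.13 (1.46 to 3.15). The CD8 ratio was 1.06 (0.938 to 1.19), and with the median CD8 gene set to no difference its log2 value turned from 0.08 to -0.03. NK cells held 24.6 and 28.4 CPM.

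Il27ra lies on the minus strand of chromosome 8 (84030294 to 84042589). Its CKO over WT ratio included 1 in every class. CD4 cells held 69.5 and 69.9 CPM (ratio 1.01, 0.910 to 1.11), CD8 cells 78.1 and 85.9 CPM (1.10, 0.964 to 1.2502), and Foxp3-positive cells 85.5 and 79.9 CPM (0.934, 0.711 to 1.22). B cells held 25.9 and 26.4 CPM, the lowest class in both libraries, and NK cells 47.2 and 38.8 CPM. In the WT library CD8 cells lay above CD4 cells by more than counting error.

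Cells of the Trdc gate gave the lowest ratios of both interleukin-6 receptor chains. Il6ra measured 112 CPM in WT and 72.3 CPM in CKO (ratio 0.648, 0.538 to 0.783), and Il6st 101 and 59.4 CPM (ratio 0.586, 0.480 to 0.717). Socs3 measured 36.4 CPM in WT and 68.8 CPM in CKO (ratio 1.89, 1.42 to 2.56). Stat3, Il21r, Il4ra and Il27ra had ratios of 1.01, 1.04, 0.881 and 0.832, and each interval included 1. The Il4ra ratio was 2.09 (0.889 to 5.98) when cells were thinned to 2000 UMIs before gating. The gate held different cells in each library: a UMI of Tcrg-C1, Tcrg-C2 or Tcrg-C4, constant genes of the gamma chain, was found in 69 of 232 WT cells (29.7%) and 438 of 624 CKO cells (70.2%). The Trac level was 167 CPM (WT) and 174 CPM (CKO) with such a UMI, and 625 and 601 CPM without.

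Within each of these subsets the Il6ra ratio was nearer to 1. With a gamma chain UMI, Il6ra measured 41.8 CPM in WT, from 18 UMIs, and 56.6 CPM in CKO (ratio 1.36, 0.835 to 2.34). Without one it measured 138 and 115 CPM (ratio 0.832, 0.658 to 1.05). The Il6st ratio was 0.706 (0.482 to 1.06) with and 0.701 (0.532 to 0.920) without. Socs3 measured 58.0 and 75.8 CPM with a gamma chain UMI (ratio 1.31, 0.865 to 2.06), and 28.1 and 49.7 CPM without (ratio 1.77, 1.13 to 2.80). Ccl5 was detected in 22.8% of the WT and 48.7% of the CKO cells of the gate, and the 4 NK cell markers, which include Nkg7, summed to 503 and 1010.0 CPM. The 4 monocyte or macrophage markers summed to 3.19 and 90.3 CPM, of which Lyz2 held 1.91 and 81.1 CPM, and Lef1, a transcription factor gene of naive T cells, measured 565 and 285 CPM. Among the cells without Ccl5, the Il6ra ratio was 0.846 (0.689 to 1.04) and the Il6st ratio 0.837 (0.660 to 1.06), so both intervals included 1. Socs3 had a ratio of 2.81 (1.98 to 4.05) in the cells without Ccl5 and 1.04 (0.623 to 1.83) in those with it. The part of this make-up in the ratios of the whole gate was not tested.

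Socs3 and Stat3 were also compared between cells with and without transcripts of an interferon state. The 4 interferon-induced genes Ifit1, Ifit3, Rsad2 and Usp18 summed to 426 CPM in WT and 759.9 CPM in CKO CD4 cells, to 538 and 861 CPM in CD8 cells, and to 262 and 429 CPM in B cells. At least 1 UMI of them was found in 46.7% of WT and 56.9% of CKO CD4 cells, 55.1% and 65.6% of CD8 cells, and 27.7% and 34.9% of B cells. In WT CD4 cells Socs3 measured 26.6 CPM without such a UMI and 39.1 CPM with one (ratio 1.47, 1.24 to 1.74). In CKO CD4 cells it measured 35.998 and 57.5 CPM (ratio 1.597, 1.28 to 1.996).

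CD8 cells with an interferon-induced UMI had 1.54 times the Socs3 level of the others in WT (1.31 to 1.83) and 1.90 times in CKO (1.27 to 2.93). The B cell ratios were 1.77 (1.12 to 2.79) and 1.98 (1.28 to 3.08). Stat3 had ratios of 1.252 and 1.31 in WT and CKO CD4 cells, 1.20 and 1.59 in CD8 cells, and 1.34 (1.16 to 1.53) and 1.08 (0.991 to 1.17) in B cells. In WT Trdc-positive cells the intervals included 1 for Socs3 (1.32, 0.758 to 2.34) and Stat3 (1.13, 0.809 to 1.58). CKO Trdc-positive cells gave 1.58 for Socs3 (1.19 to 2.12) and 1.27 for Stat3 (1.02 to 1.6005). Il6st went the other way in CD4 cells, at 0.847 and 0.743, and in WT CD8 cells, at 0.887. Intervals below 1 were also found for Il4ra in CKO CD4 (0.782), WT CD8 (0.783), CKO Trdc-positive (0.647) and CKO B cells (0.866). So were those of Il27ra in WT and CKO B cells (0.715 and 0.814) and Il21r in CKO B cells (0.888). Il21r in CKO CD4 cells was above 1 (1.16). The share of all genes lower in the cells with such a UMI was not computed. The share of genes at least 1.5-fold higher in the cells with such a UMI was 2.47% and 3.70% in WT and CKO CD4 cells, 2.64% and 6.87% in CD8 cells, 11.9% and 5.17% in Trdc-positive cells, and 3.84% and 3.33% in B cells. Cells with one were slightly deeper, with a median of 6167 against 5864 UMIs in WT CD4 cells.

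Among cells without an interferon-induced UMI, the CKO over WT ratio of Socs3 was 1.35 in CD4 cells (1.08 to 1.69) and 1.22 in CD8 cells (0.806 to 1.78). In CD4 cells the Stat3 ratio was then 1.15 (0.98996 to 1.32) and the Il21r ratio 1.13 (0.992 to 1.28), both intervals including 1. In CD8 cells the Il6ra ratio was 0.624 (0.477 to 0.805). The part of the interferon state in the genotype ratios was not tested.

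**Figure D3:**
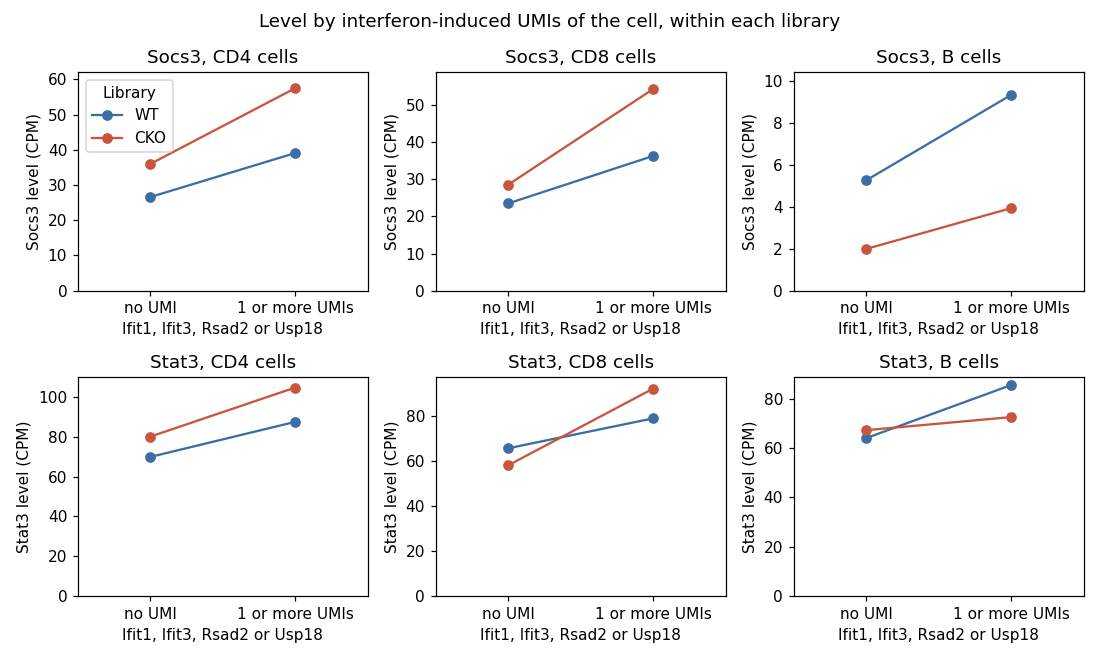
Level of Socs3 (top) and Stat3 (bottom) in CPM (axes from 0) in cells without and with a UMI of Ifit1, Ifit3, Rsad2 or Usp18, with 1 point per library and state and no error drawn. Socs3 is higher in the cells with such a UMI in both libraries of all 3 classes, and for Socs3 the CKO line lies above the WT line in CD4 and CD8 cells and below it in B cells.

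The wider pathway was described with a list of 83 ligand, receptor, sheddase, kinase, STAT, inhibitor and STAT3 target genes, chosen with earlier results known. In CD4 cells 48 of them had a mean of at least 10 CPM, of which 4 were at least 1.5-fold lower in CKO and 6 higher, against the 1.19% and 1.28% of all genes given above. Their median log2 ratio was 0.07, against 0.05 for all genes. In CD8 cells 46 reached 10 CPM, with 2 lower, 3 higher (1.1% and 3.59% of all genes) and a median of 0.10 against 0.11. In B cells 46 reached 10 CPM, with 0 lower, 0 higher (0.974% and 0.676% of all genes) and a median of 0.05 against 0.03. In each class the median of the list thus lay close to that of all genes. The shares of the list past 1.5-fold were nonetheless larger than those of all genes in CD4 and CD8 cells, in both directions. Since the list was chosen with earlier results known, nothing is read from these shares.

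Among receptors, Il7r, the interleukin-7 receptor alpha chain, measured 409.7 CPM in WT and 153 CPM in CKO CD4 cells (ratio 0.374, 0.352 to 0.397), and 351 and 167 CPM in CD8 cells (ratio 0.477, 0.436 to 0.521). Ifngr2, a chain of the interferon gamma receptor, measured 24.4 and 45.9 CPM in CD8 cells (ratio 1.88, 1.56 to 2.26), with a CD4 ratio of 1.246 (1.11 to 1.40). In B cells, at a mean of at least 20 CPM, the receptor ratios ran from 0.956 for Ifnar2 to 1.10 for Il2rg, the common gamma chain. The sheddases Adam10 and Adam17, which release receptor chains from the cell surface, had ratios of 1.08 and 1.05 in CD4 cells and 1.18 and 1.13 in CD8 cells, and each interval included 1.

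Of the kinases, Jak1 measured 518 and 526 CPM in CD4 cells (ratio 1.02, 0.979 to 1.05), and Jak2 had ratios of 1.16 in CD4 and 1.303 in CD8 cells, both intervals above 1. Stat2, a part of the type I interferon signalling complex, had the highest ratio of the STAT genes: 1.53 in CD4, 1.59 in CD8 and 1.33 in B cells. Stat4, which interleukin-12 activates, had the lowest ratio in T cells, 0.843 in CD4 and 0.823 in CD8 cells. Socs1, an inhibitor related to Socs3 that acts on interferon and common gamma chain signals, measured 43.9 and 70.3 CPM in CD4 cells (ratio 1.601, 1.44 to 1.79). Its CD8 ratio was 1.45 (1.26 to 1.66). Its B cell ratio was 1.34 (1.15 to 1.55), above 1 where that of Socs3 was below 1. Ubash3b, a phosphatase gene, had the lowest CD4 ratio of the inhibitors at 0.771.

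Ratios of the genes listed as STAT3 targets lay on both sides of 1. Whether STAT3 acts on them in these cells was not measured, and the part of cell make-up in their ratios was not tested. In CD4 cells Maf, a transcription factor of helper and follicular helper cells, measured 41.5 CPM in WT and 10.7 CPM in CKO (ratio 0.258, 0.204 to 0.322). Icos, a costimulatory receptor, had a ratio of 0.596 and Fos, an immediate early transcription factor, also 0.596. Bcl3, a nuclear cofactor of NF-kappaB, and Bcl2, an inhibitor of cell death, had ratios of 1.72 (1.45 to 2.04) and 1.52 (1.44 to 1.61). In CD8 cells Fos had a ratio of 0.546 (0.444 to 0.665) and Vim, the intermediate filament vimentin, 1.34. In B cells, at a mean of at least 20 CPM, the ratios ran from 0.757 for Gadd45g, a stress response gene, to 1.19 for Vim.

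**Figure D4:**
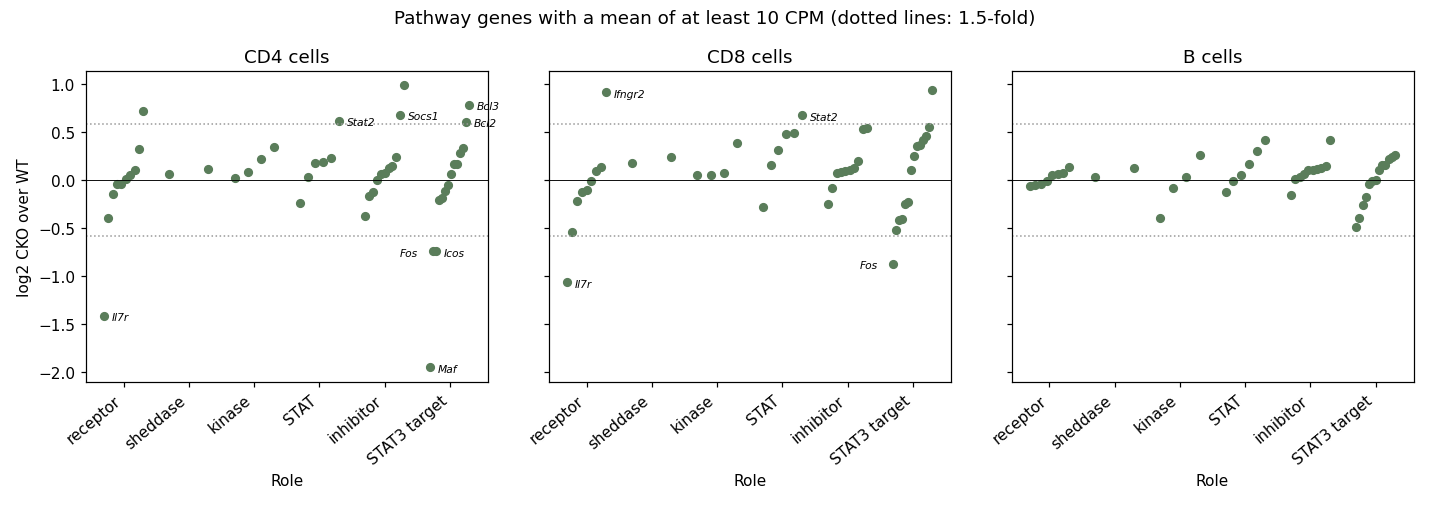
CKO over WT ratio on a log2 axis of each pathway gene with a mean of at least 10 CPM, by role, in CD4, CD8 and B cells; dotted lines mark 1.5-fold, and genes past them are named where their mean was at least 20 CPM. Il7r, Maf, Fos and Icos lie lowest in CD4 cells, and no gene passes the lines in B cells.

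Patterns over classes were compared over 14 points, 7 gates in each of 2 libraries, which share their library and depth, and each r is a description. Of 5491 genes, those most like Il6ra in log2 level were Sit1 (r = 0.984), Cd5 (r = 0.981) and S1pr1 (r = 0.977). Those most like Il6st were Kcnn4 (r = 0.992), Cd6 (r = 0.991) and Cd5 (r = 0.983), and those most like Socs3 were Ccnd2 (r = 0.959), Hk1 (r = 0.958) and Rcbtb2 (r = 0.958). For Stat3 they were Stambp, Ptpn7 and Gimap9 (r = 0.929 to 0.907), for Il4ra Kdm7a, Cd2ap and Grap (r = 0.984 to 0.961), for Il21r Id3, Cd2ap and Map7 (r = 0.963 to 0.951), and for Il27ra Peli1, Lat and Klk8 (r = 0.984 to 0.976). Among the 7 genes themselves, Il6ra and Il6st (r = 0.943) and Il4ra and Il21r (r = 0.930) had the most similar patterns.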

How the data were processed

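Lymph node cells of 1 WT and 1 CKO library were captured in droplets and counted from the 3′ end of transcripts, per the labels' protocols. The deposited values are raw UMI counts per gene and barcode, not normalized, per the file headers; depth was 84813609 UMIs in WT and 76200586 in CKO. The file headers name Cell Ranger 6.0.2, and the submitters' processing notes give version 5.0.0 instead, so the version behind the counts is uncertain; the notes also name Seurat 4.0.3 and mm10. Every barcode held at least 500 UMIs. Barcodes with under 200 genes or over 10% mitochondrial UMIs (298 WT, 432 CKO) were left out. Doublets were scored with Scrublet in scanpy 1.11.5, and the top 1304 WT and 1513 CKO scores were removed (0.8% per 1000 barcodes).

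The gates were: T, at least 2 UMIs of Cd3d, Cd3e and Cd3g and no Cd79a; Trdc-positive, Trdc detected; Foxp3-positive, Foxp3 without Trdc or Cd8b1; CD4, Cd4 without Cd8b1, Foxp3 or Trdc; CD8, Cd8b1 without Cd4, Foxp3 or Trdc; B, at least 2 Cd79a and no Cd3e; NK, Ncr1 without Cd3e. Cells in no gate were 5.65% of WT and 6.30% of CKO cells. Both the T and NK gates were met by 8 WT and 17 CKO cells, and both the B and NK gates by 4 and 9. Further small gates required no Cd3e. Plasma cells had at least 5 UMIs each of Jchain and Xbp1 and at least 3 of Mzb1. Monocytes or macrophages had at least 3 Lyz2 UMIs, Csf1r detected and no Cd79a. Dendritic cells had Flt3 detected, at least 5 H2-Ab1 UMIs and no Cd79a. Counts were summed per gate and library and divided by the total. For a count of 0 the limit given is 3 counts of the total. Intervals are exact Poisson (levels), conditional binomial (ratios) and Clopper-Pearson (shares), at 95% and for counting error only. Cells are not replicates, and no test was made. Thinning drew 2000 UMIs per cell. Patterns used log2(CPM + 1). Genes named beside the 7 were those of the list with a mean of at least 20 CPM and a 1.5-fold difference or the highest or lowest ratio in their role. The 7 genes and all lists were chosen with earlier results of these data known. Gene positions are from GENCODE M21 (GRCm38). Python 3.11.15, scipy 1.17.1 and numpy 2.4.6 were used. The ratio calculation was tried on simulated Poisson counts, the model its intervals assume, for CD4, CD8 and B cells. Spread of levels between cells was not simulated. Alternatives for filters, scaling, gates, depth and cell subsets are reported in the closing section; 1 cell subset is not reported here.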

Additional observations from a re-analysis of the deposited data

Results flagged for a closer look

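Several CKO over WT ratios lay on opposite sides of 1 in different classes, each with an interval that excluded 1, though that of Il6st in CD4 cells began at 1.00015. The differences between classes were not tested, since there was 1 library per genotype. Il6st had a ratio of 1.09 in CD4 cells, against 0.871 in CD8 cells and 0.586 in Trdc-positive cells. The CD4 log2 ratio of Il6st was 0.12, against 0.05 for the median CD4 gene, and 69.0% of genes had a lower ratio. With cells thinned to 2000 UMIs before gating, the CD4 ratio of Il6st was 1.03. Socs3 had ratios of 1.49 in CD4 cells, 1.48 in CD8 cells and 1.89 in Trdc-positive cells, against 0.424 in B cells, where its level was below 10 CPM in both libraries. The Trdc-positive cells with a gamma chain UMI were 29.7% of the gate in WT and 70.2% in CKO, and the plasma cell markers summed to 1407 CPM in WT and 561 CPM in CKO B cells. The parts of these in the Il6st and Socs3 ratios were not tested.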

How the results depend on the processing

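No paired analysis was possible because there was 1 library per genotype, and for the same reason no replicate could be left out. Of 575 alternative values for 49 ratios of a gene in a class, 520 lay within the counting interval of the reported value and 55 outside it. The sign changed in 60, of which 56 belong to ratios whose reported interval includes no difference. The other 4 are given next as reversed. All values here are log2 ratios of CKO over WT unless they are counts. Il6st in all T cells reversed to 0.041 with cells thinned before gating and 0.053 in cells without an interferon-induced UMI. Il4ra in CD4 cells reversed to -0.028 in cells without a Fos or Jun UMI, an alternative added after seeing the data. Il6ra in Trdc-positive cells reversed to 0.44 in those with a gamma chain UMI and was -0.24 in those without Ccl5, both also added after seeing the data. Il6st in the latter was -0.26, and Il21r in Foxp3-positive cells was -0.34 without an interferon-induced UMI. Socs3 in CD4 cells was 0.82 in cells without Fos or Jun. Socs3 in CD8 cells was 0.25 in such cells and 0.28 in cells without an interferon-induced UMI, and both of these intervals include no difference. Il6ra in CD8 cells was -0.68 without an interferon-induced UMI. Of the 7 genes, the count called higher in all T cells was 0 without an interferon-induced UMI and at a fold of 2. The count higher in CD4 cells was 1 with thinned cells, with the mean over cells, without Fos or Jun, and at a looser fold. The count lower in CD8 cells was 1 without an interferon-induced UMI, without Fos or Jun and at that fold, and the count higher was 1 at that fold. The share over all genes was not computed at these settings, so nothing is read from these counts. Socs3 in B cells ran from -1.64 to -0.95 over its 13 alternatives. The cause was not tested for these changes. Cell number limits the NK, Foxp3-positive and Trdc-positive values, whose gates held between 81 and 624 cells.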

Other observations

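Small gates outside the main classes held few cells, and their make-up differed between the libraries. H2-Ab1, a dendritic cell marker, measured 4137 CPM in WT and 204 CPM in CKO monocytes or macrophages. Lyz2, a monocyte or macrophage marker, measured 1784 CPM in WT and 171 CPM in CKO dendritic cells. Monocytes or macrophages, 11 in WT and 15 in CKO, had Il6ra levels of 219 CPM (WT) and 196 CPM (CKO), from 20 and 25 UMIs. They held 8 and 6 Socs3 UMIs and 0 Il27ra UMIs in both libraries, which allows up to 32.9 and 23.5 CPM (3 counts of the total). Dendritic cells, 14 and 17, held 10 and 7 Il6ra UMIs and 8 and 13 Il6st UMIs. Plasma cells held 1 and 2 Il6ra UMIs, 3 Il6st UMIs in each library and 0 Il27ra UMIs in both.

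Among the ligands over all kept cells, Il6 was found as 5 UMIs in 3 WT cells and 12 UMIs in 7 CKO cells. Il21 gave 77 UMIs in 37 WT cells and 29 UMIs in 6 CKO cells, and Il10, an anti-inflammatory cytokine that signals through STAT3, 103 UMIs in 36 WT cells and 3 UMIs in 3 CKO cells. Il4 gave 32 and 37 UMIs. The interleukin-27 subunit genes Il27 and Ebi3 gave 10 and 3, and 229 and 413 UMIs. The gp130 ligands Clcf1 and Osm gave 1184 and 1160, and 480 and 408 UMIs, and Il12a, an interleukin-12 subunit gene, gave 294 and 826 UMIs. T cells were 69.1% of WT and 29.9% of CKO cells, so these totals come from different mixtures of cells.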
